A study of Rattus norvegicus with 4 samples.

Results

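Tau is a microtubule-binding protein of axons, and its phosphorylation state is set by kinases and phosphatases that act on the same residues. Proline-directed kinases such as GSK-3 and CDK5 phosphorylate serine or threonine before proline, the MARK kinases phosphorylate the microtubule-binding repeats and release tau from microtubules, and casein kinases and DYRK1A add further or priming phosphates. These enzymes are controlled largely by phosphorylation, binding partners and proteolysis, so that a transcript level describes the supply of a kinase and not its activity. The transcripts examined here were those of 10 genes, Gsk3a, Gsk3b, Cdk5, the CDK5 activator gene Cdk5r1, Mark1, Mark2, Mark3, Csnk1d, Csnk2a1 and Dyrk1a. They were found as every probe set to which the platform annotation gives exactly 1 gene symbol that is one of these names. This gave 18 probe sets of the 31042 on the array other than Affymetrix controls. To be tested, a probe set had to reach a signal of 100 on 2 or more arrays, which 15 of the 18 did, and these 15 covered 9 of the 10 genes. The array names 14217 genes in all in this way, 9264 of them with a tested probe set.

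The study asked how stress alters gene expression in the aged hippocampus. Male Wistar rats entered 4 weeks of chronic unpredictable mild stress, a changing series of mild stressors, at 15 months of age, and their hippocampi were taken at 16 months. Age-matched nonstressed control rats of the same strain and sex were kept in standard housing. Each group had 2 arrays, each carrying total hippocampal RNA pooled from 3 rats, so the spread between rats was not seen. The sources used here call the arrays biological replicates without saying whether a group's pools were drawn from separate rats, and p-values therefore measure only the spread between these arrays, which may be technical. The log2 signals of the groups were compared by limma, with adjustment over all 14791 tested probe sets, and every difference below is stressed minus control. The smallest two-sided p that an exact permutation test allows with 2 arrays a group is 0.333, so none was used.

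The arrays were alike in scale, with median signals of 79.6 to 82.3 and a signal of at least 100 at 46.4% to 46.8% of the probe sets. Hippocampal neuron markers such as Neurod6 and Prox1 were present. Of 12 tested markers 3 were higher and 1 lower in stressed rats at adjusted p under 0.05 from limma (6 and 1 by unadjusted p). The summed neuron marker signal was 29489.5 to 30058.5 on the stressed arrays and 27629.8 to 28088.8 on the control arrays. Of 10 tested choroid plexus markers 7 were higher and none was lower at adjusted p (8 and none by unadjusted p). Their summed signal was 18642 to 19849 on the stressed arrays and 14469 to 16271 on the control arrays, and no marker was at 0. Of 9 tested endothelial and mural markers 3 were higher and none lower at adjusted p (4 and none by unadjusted p), with summed signals of 3981 to 4049 against 3489 to 3530. Of the tested markers of astrocytes 1 of 9 was higher and none lower (5 and 1 by unadjusted p). For oligodendrocytes 1 of 9 was higher and 2 lower, and for microglia 1 of 7 was higher and 2 lower (1 and 3 by unadjusted p for each). Summed signals, stressed against control, were 54995.3 to 56418.5 against 49377.6 to 51179.7 for astrocytes. They were 37977.5 to 38444.5 against 39101.3 to 41266.7 for oligodendrocytes, and 3451.1 to 3484.8 against 3675.4 to 3734.5 for microglia. The groups thus did not overlap in the summed signal of any of these marker lists. The array's own beta-actin controls gave a 3′ over middle signal ratio of 3.38 and 3.42 on the stressed arrays and 2.51 and 2.52 on the control arrays, while the Gapdh controls gave 1.76 and 1.79 against 1.71 and 1.83. The part of tissue composition or RNA quality in the differences below was not tested. In pooled tissue, fewer cells of a type and less RNA per cell cannot be told apart.

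Transcripts of the tau kinases moved in both directions in stressed rats, and most did not pass the test. The Gsk3b signal fell to 0.662-fold, while Mark1 and Mark2 rose to 1.39-fold and 1.27-fold. Csnk2a1, the gene of a catalytic subunit of casein kinase 2, had probe sets that rose, fell and did not pass. Gsk3a, Cdk5, Mark3, Csnk1d and Dyrk1a had no probe set that passed. In counts, 3 of the 15 tested probe sets rose and 3 fell (limma, adjusted p under 0.05). These 6 of 15 stand against 23.8% of all tested probe sets, of which 1771 rose and 1744 fell. The 6 include probe sets of Csnk2a1 called in both directions, so they are not separate genes. Among those that fell, 1387170_at passed the signal filter only through the control arrays. No excess is read from this share. At unadjusted p under 0.05, 4 were higher and 3 lower. With the methods' t-test on the same log2 signals none of the 15 passed after adjustment, and 4 were again higher and 3 lower at unadjusted p. The median log2 difference of the 15 was 0.08, against 0.02 over all tested probe sets. The arrays of the groups did not overlap at 11 of the 15 probe sets, against 64.4% of all tested probe sets, so that non-overlap alone marks nothing out here. The thresholds of the study's methods were at least 2-fold and unadjusted p under 0.05. By these, with p taken from limma and not from the methods' t-test, 1 of the 15 was lower and none was higher. Of all tested probe sets, 1.38% were lower by the same thresholds and p.

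**Figure D1:**
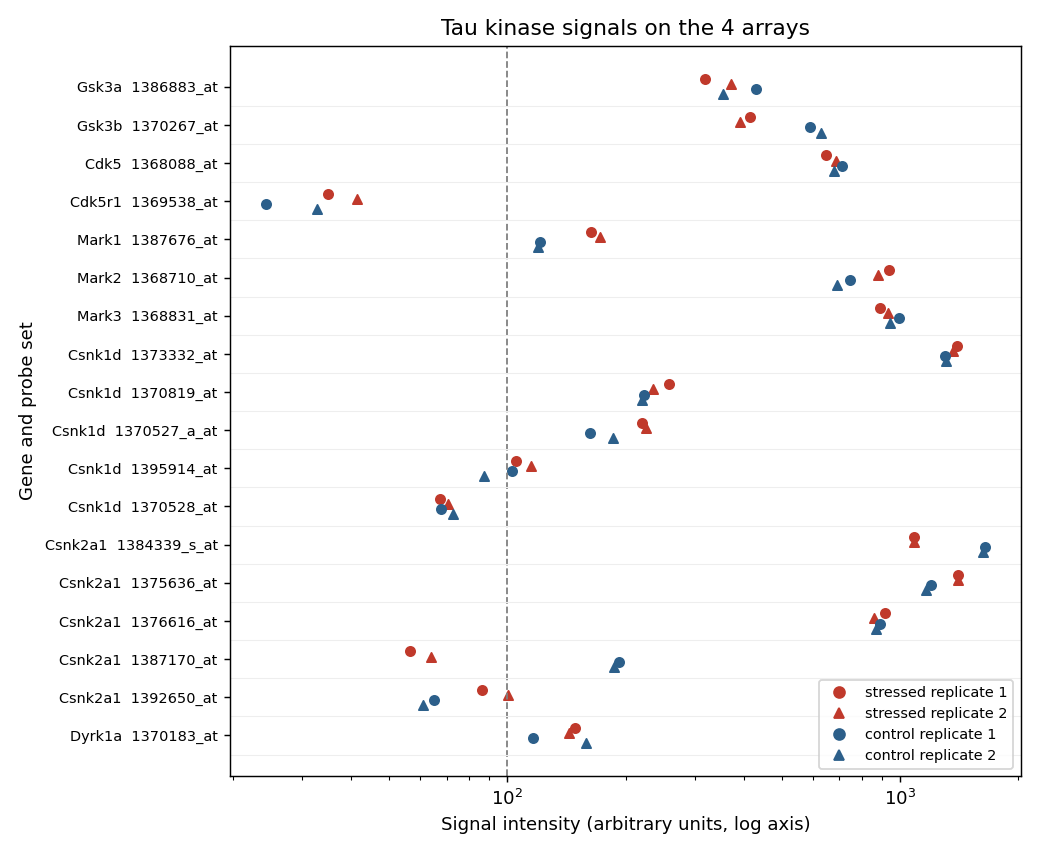
Signal intensity (arbitrary units, log axis) of all 18 tau kinase probe sets on the 4 arrays, with stressed arrays in red, control arrays in blue, replicate 1 as circles and replicate 2 as triangles; the dashed line marks a signal of 100. Stressed and control arrays are apart at Gsk3b, Mark1, Mark2 and several Csnk2a1 probe sets. They are also apart at Mark3 and the tested Csnk1d probe sets, which did not pass, and at 64.4% of all tested probe sets. The Cdk5r1 probe set, apart too but not tested, lies between 24.3 and 41.3 on every array.

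The 2 isoforms of glycogen synthase kinase 3, GSK-3 alpha and GSK-3 beta, are encoded by separate genes, and GSK-3 beta is the enzyme once named tau protein kinase I. The Gsk3b signal was 414 and 391.7 on the stressed arrays and 589.9 and 628.2 on the control arrays. Both stressed arrays were below both control arrays. The mean signal was 403 ± 15.8 in the stressed group and 609 ± 27.1 in the control group (SD, n = 2 arrays each), a log2 difference of -0.60 (SE 0.07, 95% confidence interval -0.76 to -0.43; limma, adjusted p = 0.00136). Gsk3b had a single probe set, so no second measurement of the transcript was at hand. The Gsk3a signal was 318.1 and 370.4 on the stressed arrays against 430 and 353.3 on the control arrays, and stressed replicate 2 was above control replicate 2. The log2 difference of Gsk3a was -0.18 with an interval of -0.46 to 0.09 (limma, adjusted p = 0.299), which includes both no change and a fall of the lower bound's size. Whether the fall of Gsk3b differed from that of Gsk3a was not tested.

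CDK5 is a kinase of neurons that is active only when bound to an activator, and Cdk5r1 encodes the activator p35, whose cleavage by calpain gives the longer-lived fragment p25. The Cdk5 signal was 647.4 and 688.8 on the stressed arrays and 711 and 678.8 on the control arrays, and the groups overlapped. Its log2 difference was -0.06 with an interval of -0.20 to 0.09 (limma, adjusted p = 0.549). The only probe set of Cdk5r1 was dim, with signals of 34.9 and 41.3 on the stressed arrays and 24.3 and 32.8 on the control arrays, and was not tested. In a fit that kept dim probe sets its log2 difference was 0.43, with an interval from -0.41 to 1.27 (limma, adjusted p = 0.541), too wide to give a direction. Cdk5r2, which encodes the related activator p39 and was looked up after values were seen, had 3 probe sets, all with signals under 100 on every array. The array thus measured the CDK5 kinase but neither of its activators at a usable signal. Of the calpain genes, Capn2 rose from 1370.2 and 1330 on the control arrays to 1635 and 1640.8 on the stressed arrays, a log2 difference of 0.28 (limma, adjusted p = 0.00523). Other calpain genes, named after their values were seen, did not rise with it. The subunit gene Capns1 had a log2 difference of -0.14 (limma, adjusted p = 0.110), and Capn1 was under 100 on every array. The calpain inhibitor gene Cast had a log2 difference of 0.03 at its tested probe set (limma, adjusted p = 0.841). Calpain activity was not measured on the arrays.

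The MARK kinases, microtubule affinity-regulating kinases, phosphorylate KXGS motifs in the microtubule-binding repeats of tau, MAP2 and MAP4. The Mark2 signal was 940 and 878.3 on the stressed arrays and 744.7 and 691.8 on the control arrays, with no overlap. The log2 difference of Mark2 was 0.34 (SE 0.06, interval 0.19 to 0.49; limma, adjusted p = 0.00892). Without control replicate 2 it was 0.29 and did not pass (adjusted p = 0.0684). Mark1 was dimmer, at 162.9 and 172.5 on the stressed arrays and 121.2 and 119.9 on the control arrays, again with both stressed arrays higher. Its log2 difference was 0.48 (SE 0.12, interval 0.19 to 0.76; limma, adjusted p = 0.0295). The call of Mark1 was lost when any 1 of the 4 arrays was left out (adjusted p from 0.0705 with stressed replicate 1 removed to 0.120 with stressed replicate 2 removed), when dim probe sets were kept (0.0547) and with the replicate number as a block (0.0562). Its log2 difference stayed between 0.43 and 0.52 in these fits. Mark3 had signals of 886.9 and 930.7 on the stressed arrays and 992.4 and 943.4 on the control arrays. The stressed arrays of Mark3 were the lower ones, by a narrow margin, and the log2 difference of -0.09 (interval -0.22 to 0.04) did not pass (limma, adjusted p = 0.281). Mark1, Mark2 and Mark3 had 1 probe set each.

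**Figure D2:**
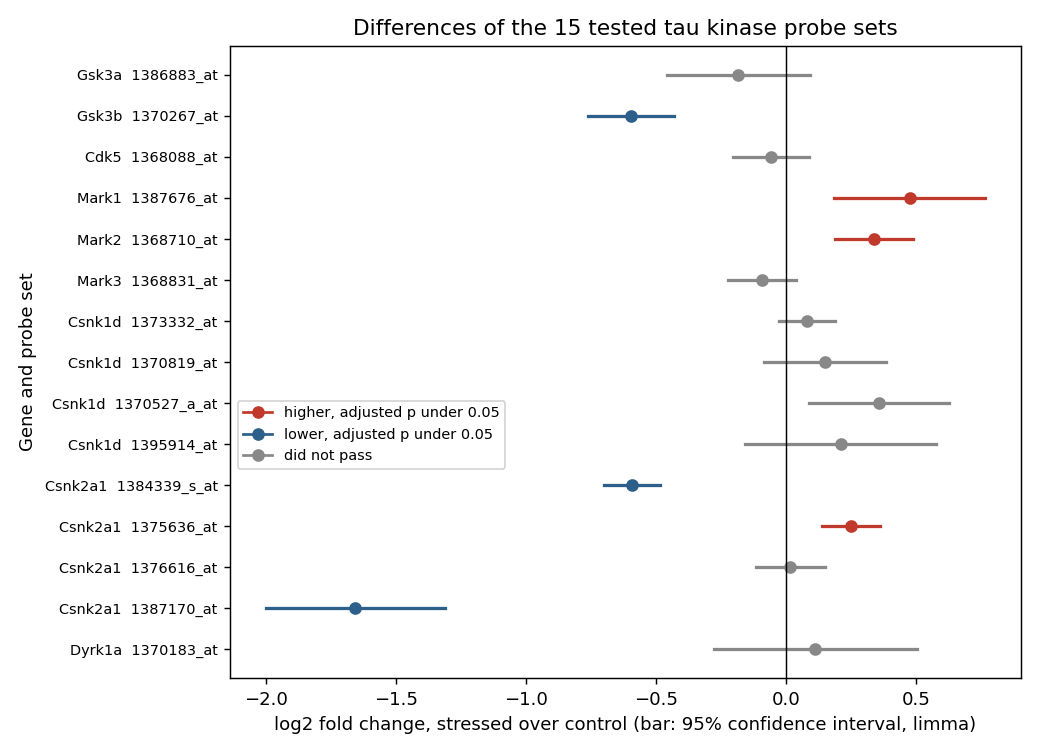
Log2 fold change, stressed over control, of the 15 tested tau kinase probe sets, as points with bars for the 95% confidence interval from limma (2 arrays per group); red and blue mark probe sets that passed adjusted p under 0.05. The 4 tested probe sets of Csnk2a1 run from -1.66 to 0.25, while the 4 of Csnk1d lie between 0.08 and 0.36 and do not pass.

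Casein kinase 1 delta phosphorylates tau at many sites and is best known as a regulator of the circadian clock proteins. Csnk1d was measured by 5 probe sets, which did not disagree. The brightest had signals of 1398.5 and 1364.9 on the stressed arrays and 1301.5 and 1311.1 on the control arrays, a log2 difference of 0.08 with an interval of -0.03 to 0.19 (limma, adjusted p = 0.250). The stressed arrays were above both control arrays at all 4 tested probe sets of Csnk1d, whose log2 differences were 0.08, 0.15, 0.36 and 0.21. None passed over all tested probe sets. The largest, at the probe set 1370527_a_at, had signals of 219.6 and 225.7 against 162.4 and 185.9 (limma, adjusted p = 0.0600), and it passed only with a minimum signal of 200 on 2 arrays (adjusted p = 0.0493). These 4 probe sets read 1 transcript pool on the same arrays and are not separate evidence for it. The remaining probe set was dim and level, at 67.4 and 70.7 against 67.7 and 72.5, and was not tested.

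Casein kinase 2 is a tetramer of catalytic and regulatory subunits, and Csnk2a1 encodes the catalytic subunit alpha. Csnk2a1 had 5 probe sets, which disagreed; Csnk1d was the only other gene of the 10 with several, so that disagreement could not be seen elsewhere. The brightest, 1384339_s_at, had signals of 1086.8 and 1084.3 on the stressed arrays and 1642.3 and 1628.7 on the control arrays. It fell by 0.59 on the log2 scale (SE 0.05, interval -0.70 to -0.48; limma, adjusted p = 1.87e-04). The suffix of its name marks a probe set whose probes are shared by several transcripts, which may include those of other genes, so that this signal cannot be assigned to Csnk2a1 alone. The next brightest, 1375636_at, moved the other way, from 1199.2 and 1161.9 on the control arrays to 1403.4 and 1407.5 on the stressed arrays. It rose by 0.25 on the log2 scale (SE 0.05, interval 0.14 to 0.36; limma, adjusted p = 0.00904). That rise was not kept without control replicate 2 (log2 difference 0.23, adjusted p = 0.0662) or without an intensity trend in the moderation (adjusted p = 0.0595). The next, 1376616_at, had overlapping signals of 917.1 and 860.3 against 887.4 and 868.3, a log2 difference of 0.02 with an interval of -0.12 to 0.15 (limma, adjusted p = 0.853).

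A dim probe set of Csnk2a1 was also lower in stressed rats. The probe set 1387170_at, the only one of Csnk2a1 whose annotated target is a RefSeq mRNA and not an expressed sequence tag, had signals of 56.5 and 63.8 on the stressed arrays and 192.4 and 186.4 on the control arrays. Its log2 difference was -1.66 (SE 0.15, interval -2.00 to -1.31; limma, adjusted p = 3.33e-04). It passed the signal filter only through the control arrays and was under 100 on both stressed arrays, so that the filter favoured a difference and the size of the fold is uncertain. In a fit that kept dim probe sets, where the filter had no part, its adjusted p was 0.00123 from limma, and with an offset of 50 added to the signals its log2 difference was -1.12. It was the 1 probe set counted above by the study's thresholds, and that count rests on it. The fifth probe set, 1392650_at, was not tested, with signals of 86.4 and 100.5 on the stressed arrays and 64.9 and 61.1 on the control arrays. In a fit that kept dim probe sets its log2 difference was 0.57 with an interval of 0.12 to 1.02 (limma, adjusted p = 0.130).

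The disagreement can also be written as a ratio within each array. The log2 signal of 1375636_at minus that of 1384339_s_at, both bright on all arrays, was 0.37 and 0.38 on the stressed arrays and -0.45 and -0.49 on the control arrays. The level of such a ratio has no meaning of its own, since probe sets differ in how brightly they read a transcript, but it does not depend on the scaling of an array, and it differed between the groups by 0.84 on the log2 scale. These 2 probe sets were picked because their calls on the same arrays were opposite. The difference of the ratio therefore restates those calls and is not further evidence. Against 1376616_at, 1387170_at and the dim 1392650_at, the ratio of 1375636_at differed between the groups by 0.23, 1.91 and -0.31. Probe positions were not used here, and the beta-actin controls, whose 3′ over middle ratio was higher on the stressed arrays, are given above; the part of either in the disagreement was not tested. No direction for the Csnk2a1 transcript as a whole can be given from these probe sets.

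**Figure D3:**
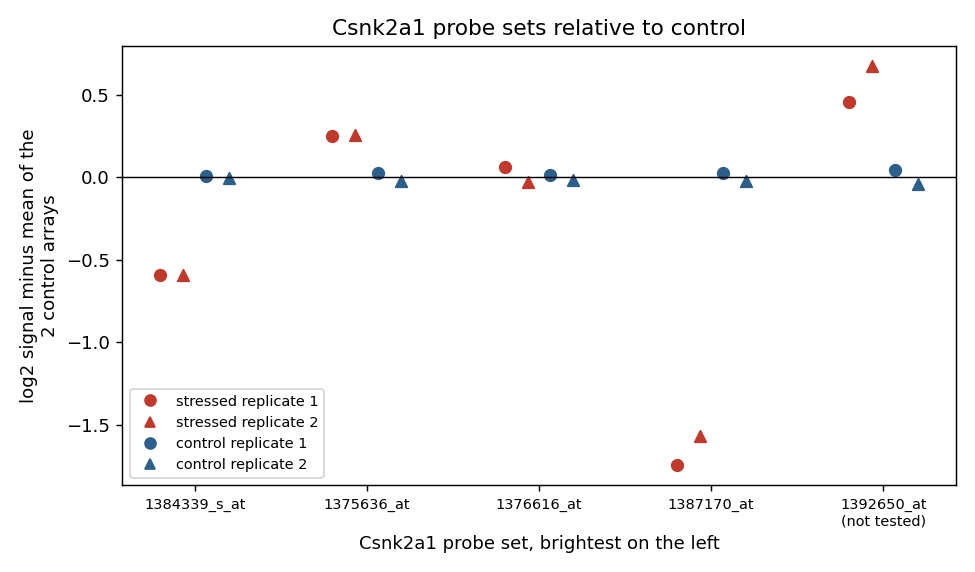
Log2 signal of the 5 Csnk2a1 probe sets on each array minus the mean of the 2 control arrays, with the brightest probe set on the left; red is stressed, blue is control, circles are replicate 1 and triangles replicate 2. Stressed arrays lie near -0.59 at 1384339_s_at, near 0.25 at 1375636_at, near 0 at 1376616_at and near -1.66 at 1387170_at, while arrays of one group lie close together.

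The sequence before the annotated start of Csnk2a1 is shown for reference only. A link between it and the disagreement of the probe sets was not tested. RefSeq places the 154 bases upstream of the outermost start of Csnk2a1 at chr3:161170141-161170294 of the rat assembly GRCr8, on the plus strand, outside any annotated gene. The capitals mark motifs found on either strand.

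Csnk2a1: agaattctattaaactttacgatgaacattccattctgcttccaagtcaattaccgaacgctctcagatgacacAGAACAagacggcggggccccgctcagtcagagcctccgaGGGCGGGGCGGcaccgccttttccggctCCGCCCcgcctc

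The window holds 3 matches to the GC box GGGCGG, 2 of them overlapping by 1 base, and 1 match to AGAACA, a half-site of the glucocorticoid response element. Of 33469 windows of the same length, each the first bases of a promoter sequence, 17.1% hold a GC box and 11.0% hold AGAACA. Unlike the Csnk2a1 window, the others were not ended at a gene's outermost start, and some lie inside annotated genes. The Csnk2a1 window holds no TGACGTCA, CCAAT or TATAAA, which occur in 0.499%, 22.1% and 7.82% of the windows. A match is a string of letters and not a shown binding site, and the arrays did not measure binding.

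DYRK1A is a dual-specificity kinase that phosphorylates tau and primes it for GSK-3. The single probe set of Dyrk1a had signals of 148.9 and 143.9 on the stressed arrays, which lay between the control signals of 115.9 and 158.1. The log2 difference was 0.11 with an interval of -0.28 to 0.50 (limma, adjusted p = 0.663), the widest interval of the 15 tested probe sets. The standard errors of the 15 tested probe sets ran from 0.05 to 0.17 on the log2 scale and were largest for Dyrk1a.

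The kinases were set beside 3 lists of surrounding genes, each gene counted once at its brightest tested probe set, where 11.1% of all 9264 genes rose and 10.2% fell at adjusted p under 0.05 from limma. Counted the same way, 2 of the 9 tau kinases rose, Mark1 and Mark2, and 2 were lower, Gsk3b and Csnk2a1. The last was counted by its shared probe set, and at its next brightest one the count would be 3 higher and 1 lower. Of 32 tested genes of other kinases that act on tau, 7 rose and 5 fell, with a median log2 difference of 0.05. Rock2 is among those that rose, by 0.19 on the log2 scale at its counted probe set (limma, adjusted p = 0.0262). At another tested probe set Rock2 fell (limma, adjusted p = 6.98e-05). Signals there were 574.3 and 573.3 on the stressed arrays and 1097.1 and 1196.3 on the control arrays. Its remaining tested probe set did not pass (limma, adjusted p = 0.141). Of 32 tested regulators and partners of the 10 genes, 6 rose and 3 fell, with a median of 0.03. Of 28 tested genes of tau and its phosphatases, 1 rose and 5 fell, with a median of -0.03. The median over all genes was 0.02. Over the 3 lists together 14 genes rose and 13 fell, which became 6 and 14 after median centring of the arrays, 6 and 11 when dim probe sets were kept, and 4 and 7 without an intensity trend.

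Among the other tau kinases, Prkaa2 fell the most. Prkaa2 encodes a catalytic subunit of the energy sensor AMPK, and its signal went from 303.3 and 318.5 on the control arrays to 135.1 and 174.6 on the stressed arrays, a log2 difference of -1.02 (limma, adjusted p = 0.00225). The gene of the other catalytic subunit, Prkaa1, named after its values were seen, had a log2 difference of 0.01 (adjusted p = 0.920). Dyrk2, a relative of Dyrk1a that can prime substrates for GSK-3, fell at each of its 3 tested probe sets, by 0.43, 0.76 and 0.25 on the log2 scale. Csnk1a1, which encodes casein kinase 1 alpha, fell at both tested probe sets, by 0.20 and 0.35. Ttbk2, a tau tubulin kinase gene, rose by 0.27 (limma, adjusted p = 0.00848). The calls of Dyrk2, Csnk1a1 and Ttbk2 at the counted probe set were each lost in at least one fit with an array left out, that of Dyrk2 without control replicate 1, that of Ttbk2 without control replicate 2 and that of Csnk1a1 in each of the 4. Csnk2a2, which encodes the other catalytic subunit of casein kinase 2 and was named after its values were seen, disagreed among its probe sets as Csnk2a1 did. Its probe set 1378282_at went from 389.9 and 392.5 on the control arrays to 222.3 and 221.3 on the stressed arrays (log2 difference -0.82, adjusted p = 6.82e-04), its probe set 1392546_at rose by 0.49 (adjusted p = 0.0271), and the brightest had a log2 difference of -0.11 (adjusted p = 0.314).

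**Figure D4:**
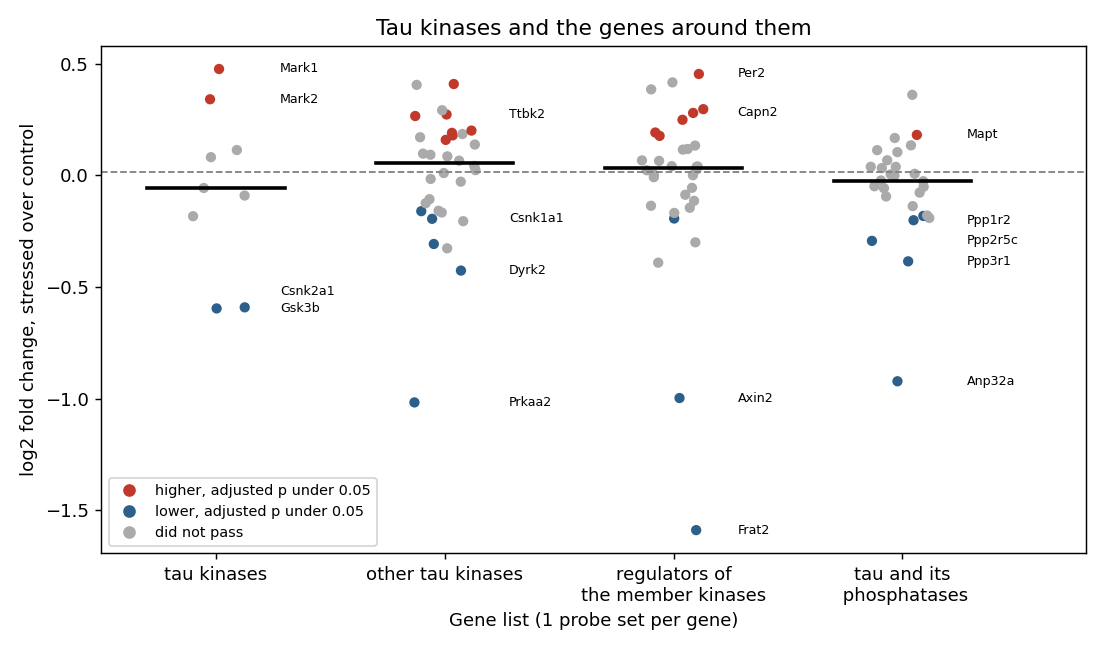
Log2 fold change, stressed over control, of each tested gene at its brightest tested probe set, for the tau kinases and the 3 surrounding lists; each point is 1 gene, black bars are list medians and the dashed line is the median of all genes, 0.02. The list medians lie between -0.06 and 0.05, and the lowest points are Frat2, Prkaa2, Axin2 and Anp32a.

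The 3 regulators that fell were Frat2, Axin2 and Ywhaz, and the 6 that rose were Capn2, Per2, Apc, Pik3ca, Dcaf7 and Ctnnb1. Pik3ca did not pass at its other tested probe sets, whose log2 differences ran from -0.48 (limma, adjusted p = 0.0581) to 0.08. Frat2 encodes a GSK-3 binding protein, and its signal was 281 and 297.2 on the stressed arrays and 861.9 and 876.5 on the control arrays. Its log2 difference was -1.59 (SE 0.07; limma, adjusted p = 1.63e-05). Axin2, a scaffold that brings GSK-3 to beta-catenin and is itself a target of Wnt signalling, went from 237.2 and 281.4 to 134 and 125, a 0.501-fold level (limma, adjusted p = 0.00176). Of other genes on the list that act with GSK-3 on beta-catenin, named after their values were seen, Apc rose by 0.30 on the log2 scale (limma, adjusted p = 0.0164), beta-catenin's own gene Ctnnb1 rose by 0.18 at its brightest probe set (adjusted p = 0.0227) but did not pass at the other 2 tested, and Axin1 and Dvl1 had log2 differences of -0.11 and 0.02 and did not pass (adjusted p = 0.510 and 0.863). Frat2 and Axin2 had a single tested probe set each, as did Capn2, described with Cdk5. Per2, a clock protein gene whose product is a substrate of casein kinase 1 delta, rose from 331.8 and 359.7 to 463.5 and 482.7 (log2 difference 0.45; limma, adjusted p = 0.00631). The groups did not overlap at Frat2, Axin2, Capn2 or Per2, nor at 64.4% of all tested probe sets. These genes were named for their small p, so their non-overlap adds nothing.

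Tau itself, encoded by Mapt, gave probe sets in both directions. The brightest, 1387071_a_at, was 6336.8 and 6071.6 on the stressed arrays and 5444.3 and 5501.6 on the control arrays, a rise of 0.18 on the log2 scale (limma, adjusted p = 0.0239). A further probe set rose by 0.20 (adjusted p = 0.0276), and 1368137_at fell from 1686.2 and 1794.8 to 1312.6 and 1193, by 0.48 (adjusted p = 0.00185). The rise of the brightest did not pass after median centring (adjusted p = 0.106), with no filter (0.0551), without an intensity trend (0.120), with the replicate number as a block (0.0979) or in any fit with an array left out (0.0567 to 0.150). Among the phosphatase genes, Anp32a, which encodes an inhibitor of protein phosphatase 2A, went from 324.2 and 322.7 on the control arrays to 180.6 and 161.3 on the stressed arrays, a log2 difference of -0.92 (limma, adjusted p = 0.00102). Ppp3r1, the regulatory subunit gene of calcineurin, fell by 0.39 at its brightest probe set and by 0.86 at another, while its remaining one had a log2 difference of -0.12 and did not pass (adjusted p = 0.391). Ppp2r5c, a regulatory subunit gene of protein phosphatase 2A, fell by 0.29 at the brightest of 3 tested probe sets and did not pass at the others. Ppp1r2, which encodes an inhibitor of protein phosphatase 1, fell by 0.20 and 0.37 at its 2 tested probe sets, the former not in any fit with an array left out. The members of this list that moved thus include inhibitors of phosphatases as well as phosphatase subunits.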

How the data were processed

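Total hippocampal RNA of 2 pools per group was hybridized by the authors to GeneChip Rat Genome 230 2.0 arrays. The deposited signal intensities were made with GCOS, with each array scaled to a common target, and the mean signal, with 2% trimmed from both tails, was 300.1 on every array. Detection calls and probe-level values were not used here. Zeros were set to 0.1 and log2 was taken, with no further normalization. No test included the 57 Affymetrix control probe sets. Of 31042 others, the annotation gave 1 symbol to 20826, several to 436 and none to 9780, and 20764 probe sets found their gene in the RefSeq table.

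The comparison used limma (version 3.58.1, under R version 4.3.3), moderated along an intensity trend with 7.73 degrees of freedom, and Benjamini-Hochberg adjustment over all 14791 tested probe sets. The test was also run on simulated data. There the spreads were shuffled over probe sets and few probe sets were changed, unlike here, so that run says nothing about the calls above. The members, lists and tests were chosen with earlier results of these data known. Named beside the members were Mapt and the 4 genes of each surrounding list with the smallest p, and others are marked. Alternatives run were median centring, quantile normalization, no filter, a minimum signal of 200, an offset of 50, no intensity trend, the methods' t-test on log2 signals, a replicate block, each array left out, and the mean of a gene's probe sets. A crossed pairing and the study's thresholds on these lists were added after seeing the data. The number of arrays limits the precision. Tables came from python 3.11.15 with numpy 2.4.6 and pandas 2.3.3, and plots from matplotlib 3.10.9.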

Additional observations from a re-analysis of the deposited data

How the results depend on the processing

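No tau kinase probe set changed direction past the threshold under any alternative run. With the methods' t-test none rose and none fell at adjusted p, for the 15 tau kinase probe sets (4 higher and 3 lower at unadjusted p) and for the 3 surrounding lists (16 higher and 14 lower at unadjusted p), and 4 and 14 of all probe sets rose and fell. Without an intensity trend 1000 of all tested probe sets rose and 1147 fell, and 4 and 7 genes of the surrounding lists. In those lists 6 genes rose after median centring, 6 with no filter and 6 with the replicate block, where 8 fell. When each array was left out in turn, 0 to 2 tau kinase probe sets rose and 3 fell; without control replicate 2 none rose (4 higher at unadjusted p by limma). All probe sets that rose then numbered 650 to 1148 and those that fell 791 to 1342, and in the surrounding lists 3 to 6 rose and 6 to 9 fell. With 1 array left in a group, its spread is taken from the other group.

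The deviations of arrays with the same number correlated at -0.11 over probe sets, so the numbers were not taken as pairs. With the replicate number as a block, 2 tau kinase probe sets rose and 3 fell, and Mark1 was the one not kept. With the crossed pairing, added after seeing the data, 3 rose and 3 fell. Each cause was not tested.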
